A study of Mus musculus with 6 samples.

Results

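The genes described here are 10 cardiac transcription factors, Gata4, Gata6, Nkx2-5, Tbx5, Tbx20, Hand2, Mef2a, Mef2c, Mef2d and Srf, chosen by name among the 35485 features of the expression tables. Each was followed in the left ventricle, hippocampus and prefrontal cortex of mice with ischemic chronic heart failure (CHF) and of their sham-operated controls. The animals were young adult male C57BL/6 mice, given as C57BL/6N in the study's methods, killed 8 weeks after the operation. In CHF mice the proximal left anterior descending coronary artery had been ligated permanently and the infarct reached the minimum size set by the study, whereas sham mice underwent thoracotomy without a coronary suture. Both groups were operated under isoflurane and passed through the same behavioral tests. RNA of 3 CHF mice or of 6 sham mice was pooled in equal parts for each tissue, 2 µg RNA per pool, and every pool gave 1 library, 6 in all. A difference between pools therefore has no replicate check, and no p-value is given. The sources used here do not say whether the sequenced ventricle contained scar tissue.

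These factors bind short DNA motifs upstream of heart muscle genes and act together. GATA4 and GATA6 are zinc finger proteins that bind GATA motifs. NKX2-5 is a homeodomain protein, TBX5 and TBX20 are T-box proteins, and HAND2 is a basic helix-loop-helix protein that binds E-boxes. SRF and the MEF2 proteins belong to the MADS-box family. SRF binds the CArG box of cytoskeletal, smooth muscle and immediate early genes, and MEF2 factors bind an A/T-rich site in muscle genes. In the embryo the GATA, NKX, T-box and HAND factors specify the heart, and in the adult they maintain the heart muscle program. MEF2 and SRF also work outside the heart: in neurons they drive activity-dependent transcription.

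Promoter sequences are shown for 5 of the members with a RefSeq window, chosen to cover different patterns across tissues, so that the motifs of the family can be seen in place. Hand2 and Nkx2-5 gave 0 reads in all brain libraries, Srf and Mef2d gave at least 2058 reads in every library, and Mef2c had its highest level in the prefrontal cortex. Each run holds the 250 bases before the RefSeq transcription start in GRCm38.p6, read 5′ to 3′ on the gene's strand, with matches to the searched motifs in capitals. They lie at chr8:57320733-57320982 (Hand2, plus strand), chr17:26841566-26841815 (Nkx2-5, minus), chr17:46556163-46556412 (Srf, minus), chr3:88142122-88142371 (Mef2d, plus) and chr13:83503784-83504033 (Mef2c, plus, the start that the counted feature uses).
Hand2: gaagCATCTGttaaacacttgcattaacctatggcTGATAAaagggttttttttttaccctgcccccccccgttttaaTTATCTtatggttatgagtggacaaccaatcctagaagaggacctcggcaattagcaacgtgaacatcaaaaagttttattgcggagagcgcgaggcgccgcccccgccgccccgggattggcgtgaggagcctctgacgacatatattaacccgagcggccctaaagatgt
Nkx2-5: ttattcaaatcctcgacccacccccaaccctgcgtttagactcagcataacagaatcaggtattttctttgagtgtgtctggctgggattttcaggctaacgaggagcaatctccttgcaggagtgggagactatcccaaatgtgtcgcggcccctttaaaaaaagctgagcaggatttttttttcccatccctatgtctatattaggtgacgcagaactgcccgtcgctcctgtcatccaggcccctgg
Srf: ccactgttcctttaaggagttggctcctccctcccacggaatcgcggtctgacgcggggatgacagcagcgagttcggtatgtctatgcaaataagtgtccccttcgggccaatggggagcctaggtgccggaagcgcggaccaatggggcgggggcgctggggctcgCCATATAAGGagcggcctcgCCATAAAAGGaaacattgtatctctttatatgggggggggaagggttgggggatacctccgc
Mef2d: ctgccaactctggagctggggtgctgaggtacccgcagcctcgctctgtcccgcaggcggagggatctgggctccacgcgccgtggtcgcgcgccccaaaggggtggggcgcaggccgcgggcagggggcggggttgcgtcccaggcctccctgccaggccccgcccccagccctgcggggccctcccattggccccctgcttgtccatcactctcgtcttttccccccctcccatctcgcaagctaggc
Mef2c: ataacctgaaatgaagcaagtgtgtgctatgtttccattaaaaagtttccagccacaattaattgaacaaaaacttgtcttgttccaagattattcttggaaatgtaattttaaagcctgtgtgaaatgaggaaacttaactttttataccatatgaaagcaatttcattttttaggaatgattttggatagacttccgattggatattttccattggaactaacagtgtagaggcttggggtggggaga

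RefSeq windows were at hand for 7 of the 10 members, 9 windows in all, since Mef2c has 3 starts. They were searched on both strands for the CArG box, the MEF2 site, GATA sites (the letters GATA after A or T and before A or G), the NKX2-5 site TNAAGTG, the T-box site AGGTGT and the HAND E-box CATCTG. The Srf promoter held 2 CArG boxes, the motif bound by SRF itself, at -82 to -73 and -62 to -53 from the start. A CArG box was present in 1.47% of 32851 promoter windows of this length. Because the motif reads alike on both strands, each box matched on both. The Hand2 window held 2 GATA sites, at -215 to -210 and -172 to -167, and a HAND E-box at -246 to -241. GATA sites were found in 26.5% and HAND E-boxes in 14.4% of all windows. Nkx2-5, Mef2d, Mef2a, Tbx20 and the printed Mef2c window held none of the searched letters. The downstream Mef2c windows held an AGGTGT, found in 11.8% of promoters, and a HAND E-box. In base composition the printed Mef2c window stood low, with 33.6% G and C, and the Mef2d window high, with 73.2%, beside a median of 52.4% over all windows. A match describes the letters only and is not a measured binding site.

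The libraries held 15.7 to 25.9 M unique gene reads, the fewest in sham left ventricle and the most in CHF hippocampus. Tissue labels fitted the markers. Neuron markers summed to between 5825 and 7132 CPM (unique gene reads scaled to equal library size) in the brain libraries and to 25.7 and 41.3 CPM in the ventricle. Cardiomyocyte markers summed to 62434 CPM in sham and 40916 CPM in CHF ventricle, and to between 150.0 and 168 CPM in brain. Levels are given as unique gene reads, as CPM, or as the deposited RPKM, which divides by the listed gene length. That length is the genomic span with introns, so RPKM is low for long genes. Exons made up between 7.84% of the span (Gata4) and 63.2% (Hand2). Genes counted as measured where both libraries of the tissue reached 100 unique gene reads with an RPKM above 0. They were called higher or lower in CHF when the log2 of the RPKM ratio was 0.9 or more in either direction (1.87-fold). Every interval below is a 95% counting interval and covers counting error only, not the spread between mice or pools.

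All 10 members were measured in the left ventricle, and 5 of them, Tbx20, Mef2a, Mef2c, Mef2d and Srf, in each brain region. The core cardiac factors Gata4, Gata6, Nkx2-5, Tbx5 and Hand2 had at most 8 unique reads in any brain library. In the ventricle, Tbx20 was 1.38-fold higher and Tbx5 1.62-fold lower in CHF, Mef2d, Hand2 and Mef2a were 1.29-fold, 1.20-fold and 1.20-fold lower, and the other 5 members lay within 1.11-fold of sham. In this bulk tissue, fewer cells of a type and less RNA per cell cannot be told apart. None passed the threshold: 0 of 10 members in the ventricle, beside 12% of the 9771 genes measured there, 0 of 5 in hippocampus, beside 0.189% of 11086 genes, and 0 of 5 in prefrontal cortex, beside 0.0558% of 10747 genes.

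**Figure D1:**
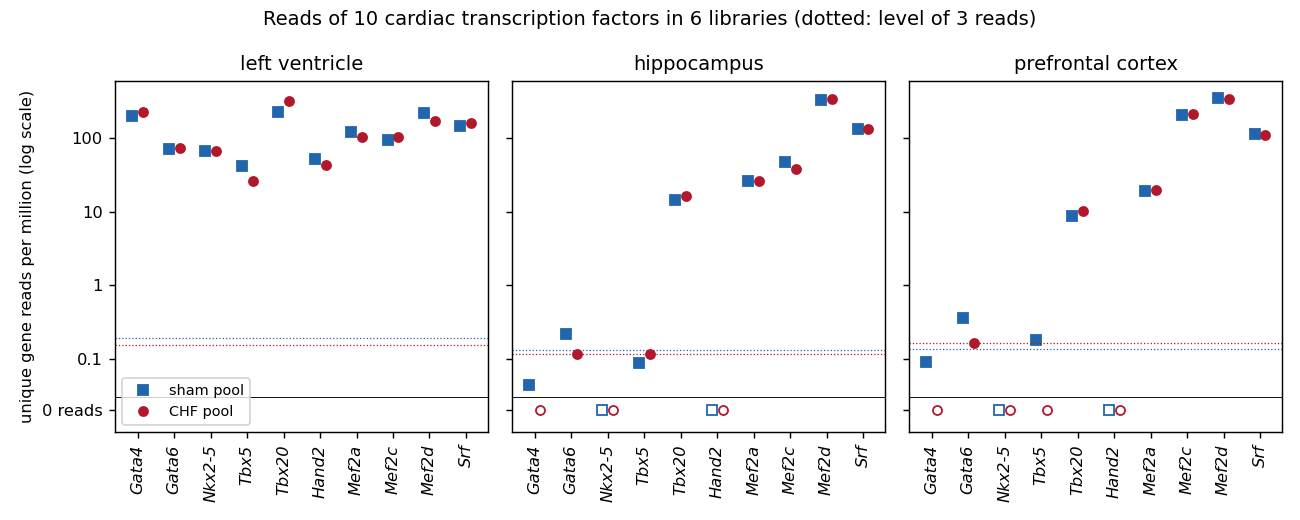
CPM of unique gene reads (log axis) of the 10 members in each tissue, with the sham pool as blue squares and the CHF pool as red circles, 1 library per point; open symbols at the bottom stand for 0 reads, and dotted lines mark the level of 3 reads in each library. In the ventricle all points lie between 26.3 and 321 CPM, while in both brain regions Gata4, Gata6, Nkx2-5, Tbx5 and Hand2 lie below 1 CPM.

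The GATA factors were read in the heart and hardly in the brain. Gata4 (chr14:63198915-63245260, minus strand), a partner of NKX2-5 and TBX5 on cardiac promoters, gave 3183 unique gene reads in sham and 4523 in CHF ventricle. In hippocampus it gave 1 read in sham and 0 in CHF, and in prefrontal cortex 2 and 0. Against the level of 3 reads, Gata4 in CHF ventricle was at least 1962-fold higher than in CHF hippocampus and at least 1407-fold higher than in CHF prefrontal cortex. Gata6 (33126 bp, plus strand), which overlaps GATA4 in its functions and also acts outside the heart muscle, gave 1101 and 1456 reads in sham and CHF ventricle. Its brain counts were 5 and 3 in hippocampus and 8 and 3 in prefrontal cortex. In sham mice the ventricle was 322-fold (138 to 994) above hippocampus and 197-fold (99.5 to 457) above prefrontal cortex.

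Gata4 had an RPKM of 3.98 in sham and 4.41 in CHF ventricle, a log2 ratio of 0.15 (0.08 to 0.21). The interval excludes 0, but the median of all genes measured in the ventricle was itself at 0.22, so that Gata4 stood 0.08 below that median, and its sign turned with other scalings of the libraries. Gata6 had RPKM values of 1.93 and 1.99, a log2 ratio of 0.04 (-0.07 to 0.16) that also turned sign with other scalings. The reads of Gata4 for each read of Gata6, a ratio within a library that needs no scaling, were 2.89 in sham and 3.11 in CHF, and the log2 change of this ratio was 0.10 (-0.03 to 0.24). The balance of the GATA pair thus did not differ between pools beyond counting error.

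Nkx2-5 and Hand2 were read only in the ventricle among these 6 libraries. Nkx2-5 (chr17:26838665-26841565, minus), the homeodomain factor of the early heart field, gave 1035 unique reads in sham and 1345 in CHF ventricle and 0 in all 4 brain libraries. Hand2 (chr8:57320983-57324517, plus), best known for the growth of the right ventricle and of the outflow tract, gave 805 and 858 reads and 0 in all 4 brain libraries. A count of 0 allows up to 3 reads, between 0.116 and 0.162 CPM in the brain libraries, so that in sham mice Nkx2-5 was at least 505-fold and at least 493-fold higher in the ventricle than in hippocampus and prefrontal cortex. For Hand2 the corresponding bounds were 393-fold and 384-fold.

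Between pools, Nkx2-5 had RPKM values of 20.7 in sham and 20.9 in CHF, and its log2 ratio of 0.02 (-0.10 to 0.14) turned sign with other scalings. Hand2 had an RPKM of 13.2 in sham and 11.0 in CHF, a log2 ratio of -0.27 (-0.41 to -0.13), below 0 under each of 6 other scalings or corrections (-0.56 to -0.25). GENCODE places the antisense transcript Hand2os1 across 3251 bp of the Hand2 gene, and it is not a feature of the tables. The library kit keeps strand, but the sources used here do not say whether counting used strand, so reads of Hand2 and Hand2os1 may be joined.

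The T-box genes lay on opposite sides of sham. Tbx5 (chr5:119834663-119885218, plus), a factor of the atria, the left ventricle and the conduction system, gave 660 unique reads in sham and 523 in CHF ventricle, although the CHF library was the deeper one. Its RPKM was 0.761 in sham and 0.468 in CHF, a log2 ratio of -0.70 (-0.86 to -0.53), and 2.98% of the 9771 measured genes had a lower value. Relative to the median of all genes Tbx5 stood at -0.92. Scaled with TMM factors its log2 ratio was -0.97 and with DESeq2 size factors -0.98, past the threshold, where TMM placed 3.88% of all measured genes at -0.9 or lower. Brain reads of Tbx5 were 2 and 3 in sham and CHF hippocampus, and 4 and 0 in prefrontal cortex, too few for a ratio between pools.

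Tbx20 (chr9:24720812-24774303, minus), which acts in heart muscle, valves and endocardium, gave 3619 reads in sham and 6381 in CHF ventricle. The RPKM values were 3.93 and 5.41, a log2 ratio of 0.46 (0.40 to 0.52), which stayed above 0 under the same 6 alternatives (0.17 to 0.48). It was the 1 member above the median of all genes, under the main scaling and under each alternative. Within a library, Tbx20 gave 5.48 reads for each Tbx5 read in sham and 12.2 in CHF, a log2 change of 1.15 (0.98 to 1.33). Gata4 reads per Tbx5 read were 4.82 in sham and 8.65 in CHF, a log2 change of 0.84 (0.66 to 1.02). These gene pairs, like those of the MEF2 family, were chosen after their values were seen.

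Unlike the other T-box member, Tbx20 was also measured in the brain. Its unique reads were 329 in sham and 426 in CHF hippocampus and 196 and 187 in prefrontal cortex, or 14.3, 16.5, 8.74 and 10.1 CPM. The hippocampus lay 1.64-fold above the prefrontal cortex in sham and 1.63-fold in CHF, and the sham ventricle 16.1-fold (14.4 to 18.1) above the sham hippocampus. The log2 ratios between pools, 0.20 (-0.01 to 0.41) in hippocampus and 0.20 (-0.09 to 0.50) in prefrontal cortex, included 0 in their counting intervals. In the ventricle the log2 ratio was 0.26 above that in hippocampus (0.04 to 0.47), and after the median of all genes in each tissue was subtracted the difference was 0.07.

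**Figure D2:**
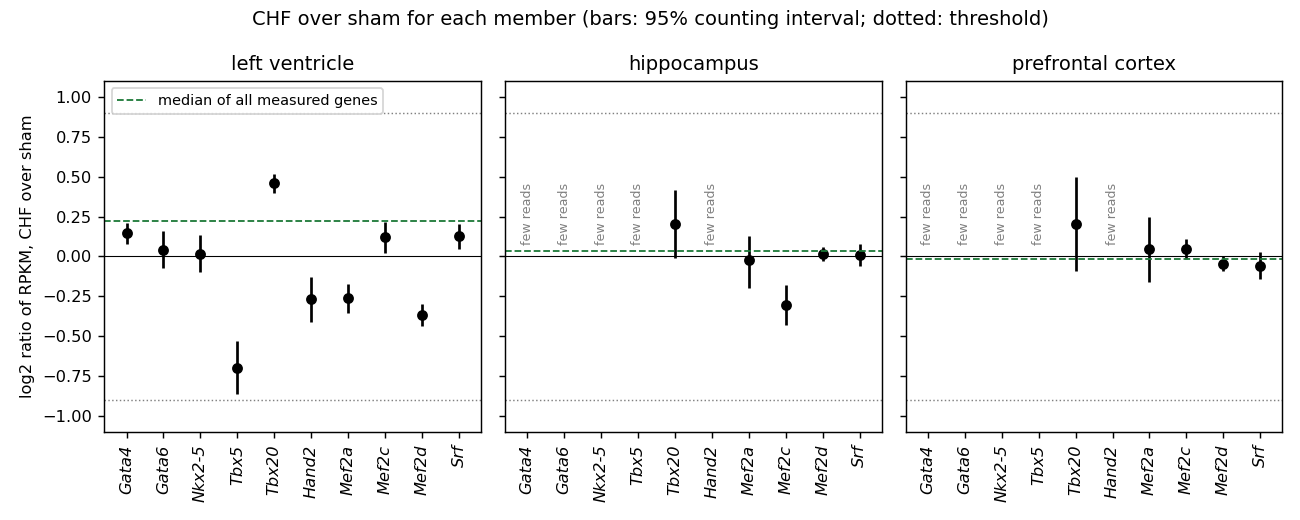
Log2 of the RPKM ratio (CHF over sham) for each member in 3 tissues, with bars for the 95% counting interval, a dashed line for the median of all measured genes and dotted lines for the threshold of 0.9; members under the read minimum are marked. In the ventricle Tbx20 (0.46) lies above the median of all genes (0.22) and Tbx5 (-0.70) lies farthest below it, whereas the small positive values of Gata4, Gata6, Nkx2-5, Mef2c and Srf turn negative with other scalings; in hippocampus Mef2c (-0.30) is the 1 member whose bar excludes 0.

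The MEF2 genes were expressed in all tissues, each with its own distribution. Mef2d (chr3:88142395-88169167, plus), a widely expressed stress-responsive member, gave 7674 unique reads in sham and 8736 in CHF hippocampus, 7897 and 6340 in prefrontal cortex, and 3433 and 3417 in ventricle. As CPM the sham brain regions were 1.53-fold and 1.61-fold above the ventricle. Mef2c (chr13:83504034-83667079, plus), required for heart development and active in cortical neurons and microglia, gave 4580 and 3919 reads in prefrontal cortex, 1088 and 993 in hippocampus, and 1477 and 2060 in ventricle. Its prefrontal level was 4.31-fold (4.03 to 4.61) above hippocampus and 2.17-fold above ventricle in sham mice. The order of tissues was the same in CHF mice, with 5.50-fold and 2.04-fold. Mef2a (chr7:67233824-67372858, minus), the member linked to mitochondrial and cytoskeletal genes of the heart, was highest in ventricle with 1904 and 2033 reads, against 607 and 667 in hippocampus and 430 and 367 in prefrontal cortex. In GENCODE the gene Lysmd4 overlaps 73507 bp of Mef2a on the other strand, though the spans listed in the files do not meet.

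In the ventricle Mef2d was lower in CHF, with an RPKM of 7.44 in sham and 5.77 in CHF and a log2 ratio of -0.37 (-0.44 to -0.30). Mef2a was lower as well, 0.798 against 0.667 and -0.26 (-0.36 to -0.17). Both stayed below 0 under the 6 alternatives. Mef2c had RPKM values of 0.525 and 0.571, a log2 ratio of 0.12 (0.02 to 0.22) that was -0.15 with TMM factors and -0.17 with DESeq2 size factors. Since all 3 genes were counted in the same libraries, their shares are free of the scaling. Mef2c made up 21.7% (20.7 to 22.7) of the MEF2 reads in sham ventricle and 27.4% (26.4 to 28.5) in CHF ventricle, while Mef2d went from 50.4% (49.2 to 51.6) to 45.5% (44.4 to 46.6). The share of Mef2a was 27.9% in sham and 27.1% in CHF, with intervals that overlapped.

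In hippocampus the balance went the other way. Mef2c had an RPKM of 0.267 in sham and 0.216 in CHF, a log2 ratio of -0.30 (-0.43 to -0.18) that ranged from -0.34 to -0.29 over the alternatives, and 3.64% of the 11086 genes measured in hippocampus had a lower value. Its share of MEF2 reads was 11.6% (11.0 to 12.3) in sham and 9.55% (8.99 to 10.1) in CHF. Mef2d and Mef2a were close to sham there, with log2 ratios of 0.02 (-0.03 to 0.06) and -0.02 (-0.20 to 0.13). In prefrontal cortex the 3 genes lay within 0.05 of 0, at 0.05 for Mef2c (-0.01 to 0.11), 0.05 for Mef2a (-0.16 to 0.25) and -0.04 for Mef2d (-0.09 to 0.00). The reads of Mef2c per read of Mef2d differed between CHF and sham by 0.49 on the log2 scale in ventricle (0.37 to 0.61), by -0.32 in hippocampus (-0.45 to -0.19) and by 0.09 in prefrontal cortex (0.01 to 0.17). Neuron and microglia markers, which cover cells that express Mef2c, were beside these values: in hippocampus the medians of 9 measured neuron markers and of 8 measured microglia markers were -0.09 and 0.12, and neuron markers summed to 6335 CPM in sham and 5825 CPM in CHF. Their part in the Mef2c value was not tested.

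**Figure D3:**
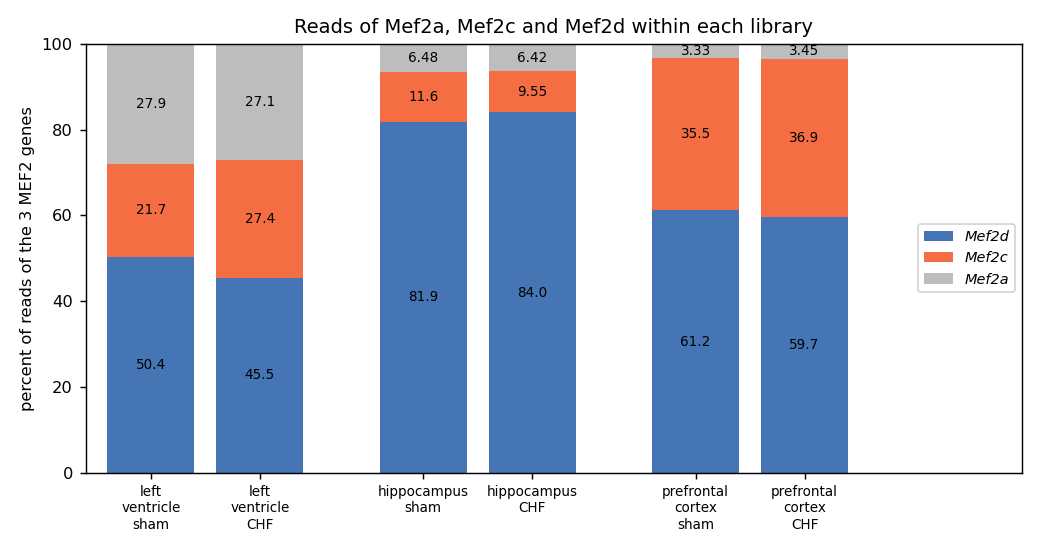
Percent of the unique gene reads of Mef2a, Mef2c and Mef2d taken by each gene, 1 stacked bar per library, sham left and CHF right in each tissue. From sham to CHF the Mef2c share goes from 21.7% to 27.4% in ventricle, from 11.6% to 9.55% in hippocampus and from 35.5% to 36.9% in prefrontal cortex, and Mef2d takes most of the hippocampal reads.

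Srf (chr17:46546839-46556162, minus) had a similar level in all tissues. It gave 2266 unique reads in sham and 3175 in CHF ventricle, 3087 and 3493 in hippocampus, and 2586 and 2058 in prefrontal cortex. As CPM the sham levels were 144, 134 and 115, so that the ventricle was 1.07-fold (1.02 to 1.13) above hippocampus and 1.25-fold (1.18 to 1.33) above prefrontal cortex. In CHF the ventricle was 1.18-fold and 1.44-fold above them. The log2 ratios between pools were 0.13 (0.05 to 0.20) in ventricle, where the sign turned with TMM, DESeq2 and totals without the largest features, 0.01 (-0.06 to 0.08) in hippocampus and -0.06 (-0.14 to 0.03) in prefrontal cortex. Set against the MADS-box gene Mef2d, Srf gave 0.660 reads per Mef2d read in sham and 0.929 in CHF ventricle, a log2 change of 0.49 (0.39 to 0.60). In hippocampus the ratios were 0.402 and 0.400. This pair, too, was chosen after its values were seen. In ventricle Mef2d itself had a log2 ratio of -0.37, whereas Mef2c, another MADS-box gene, had 0.12, close to the 0.13 of Srf. The noncoding gene Gm26904 spans Srf on the other strand and is not a feature of the tables.

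Across members, the order of levels in sham ventricle depended on the length used. By deposited RPKM, Nkx2-5 (20.7) and Srf (14.1) led and Mef2c (0.525) was last. By CPM per kb of exon, with exon lengths from GENCODE, Mef2d (71.9), Gata4 (55.8), Srf (50.1) and Nkx2-5 (43.3) led, Tbx20 (24.7) and Hand2 (23.0) followed, and Gata6 (11.0), Mef2a (10.1), Tbx5 (9.52) and Mef2c (5.99) were lowest. Reads in introns are part of these counts, so neither scale gives mature RNA. In both brain regions Mef2d and Srf held the first ranks by either scale, with Mef2d at 11.5 and Srf at 13.2 RPKM in sham hippocampus and at 12.1 and 11.4 RPKM in sham prefrontal cortex.

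As a group the members lay mostly below the median of all genes in the ventricle. The median log2 ratio of the 10 members was 0.03 (-0.24 with TMM factors and -0.26 with DESeq2 size factors), with a range from -0.70 to 0.46, or -0.19 relative to the median of all 9771 genes, and 4 counting intervals lay above 0, 4 below and 2 across it. Of all genes past the threshold, 87.3% were higher with RPKM, but 62.9% with TMM factors, 60.4% with DESeq2 size factors and 75.2% with totals that left out the 10 features with the most reads. Each library's own 10 largest features, which need not be the set left out, held 28.0% of the reads in sham and 17.6% in CHF ventricle. Against RPKM these scalings moved the median of all genes by -0.28, -0.29 and -0.17, which takes the members above 0 from 6 of 10 to 1 of 10, Tbx20. Relative to the median of all genes 1 of 10 members was above it under each of these scalings.

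**Figure D4:**
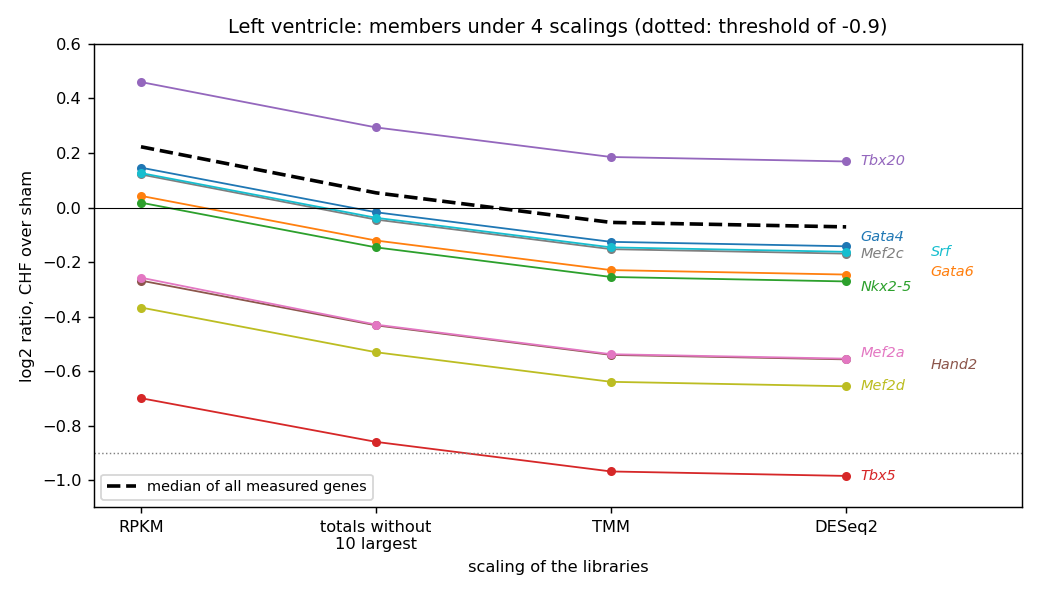
Log2 ratio, CHF over sham, of each member in the ventricle under 4 scalings, with the median of all measured genes as a dashed line and the threshold of -0.9 dotted. All lines move down together with the median; Tbx20 stays above it (0.46 with RPKM, 0.17 with DESeq2), 5 members change sign, and Tbx5 passes the threshold with TMM (-0.97) and DESeq2 (-0.98).

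The RNA of cell type markers in the ventricle differed between pools at the same time. Of all 9771 genes measured there, 12% passed the threshold, 1027 higher and 150 lower (642 and 379 with TMM factors). Of 11 measured fibroblast and matrix markers 11 were higher in CHF, with a median log2 ratio of 3.27. Postn (4.44), a matrix protein of activated fibroblasts, led them. The summed level of the list was 1332 CPM in sham and 9721 CPM in CHF. Tcf21 of this list is listed at 0 in all libraries, brain included. Of 9 measured macrophage markers 8 were higher (median 1.84, 316 against 1096 CPM), among them Cx3cr1 (2.42), the fractalkine receptor. Of 11 measured cardiomyocyte markers 0 were higher and 1 was lower, with a median of -0.45, while with TMM factors 4 were lower and the median was -0.72. Of this list Pln is listed at 0 in all libraries. Endothelial markers had a median of 0.07 (-0.20 with TMM factors) with 1 of 11 higher, and smooth muscle and pericyte markers one of 0.77 with 4 of 9 higher and 1 lower (2 higher and 1 lower with TMM factors). The members' median was 0.03, beside 0.22 for all measured genes, and the part of cell composition in the members' values was not tested.

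Other cardiac transcription factors passed the threshold about as often as all genes. Of 18 measured in the ventricle 1 was higher and 1 lower, beside 12% of all measured genes in either direction, with a median of -0.10 (-0.37 with TMM factors). They were Nfatc4, a calcineurin-dependent factor, with 164 reads in sham and 784 in CHF (log2 ratio 1.88), and Hopx, a homeodomain-only cofactor of SRF, with 3629 and 1806 (-1.36). Klf15 (-0.62), a repressor of hypertrophic genes, and Irx4 (-0.60), a ventricular Iroquois factor, stood below 0 without passing the threshold. Of 23 measured cofactors of the members 2 were higher and 0 lower, with a median of 0.04 that was -0.23 with TMM factors. The higher genes were Ankrd1 (18296 reads in sham, 80055 in CHF, log2 ratio 1.77), a stretch-responsive ankyrin repeat protein, and Mkl1 (254 and 672 reads, 1.05), the actin-regulated coactivator of SRF. With TMM factors Mkl1 had 0.77 and only Ankrd1 remained past the threshold in this list, beside 642 higher and 379 lower of 9771 genes.

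The target genes of the members were grouped by factor. Of 21 measured targets of GATA, NKX2-5 and T-box factors, 2 were higher and 2 lower, beside the same 12% of all genes, with a median of -0.35. The natriuretic peptide genes Nppa (3547 reads in sham, 68808 in CHF, log2 ratio 3.92) and Nppb (4195 and 18959, 1.82) were higher. The calcium pump gene Atp2a2 (220981 and 143098 reads, -0.98) and the α-myosin gene Myh6 (-0.99), which can share reads with its near-identical neighbor Myh7 and is uncertain for that reason, were lower. With TMM factors 2 of these targets were higher and 6 lower, beside 642 higher and 379 lower of all 9771 measured genes. The list shares 6 of its 22 genes with the cardiomyocyte markers.

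Of 16 measured SRF targets of muscle and matrix cells 12 were higher and 0 lower, beside 12% of all measured genes in either direction (1027 higher and 150 lower of 9771). The list, drawn up with earlier results of these data known, had a median of 1.31, while Srf itself had 0.13. Ctgf, a matricellular protein, gave 1286 reads in sham and 18817 in CHF (log2 ratio 3.51), and the skeletal actin gene Acta1 gave 3155 and 15823 (1.97). Tagln (1.87) and Acta2 (1.51), smooth muscle genes also expressed in myofibroblasts, were higher too. By contrast Smtn had -0.77, the lowest value of the list, and Tpm1, its most abundant gene by RPKM in sham, had -0.31. With TMM factors 9 were higher and 1 lower, beside 642 higher and 379 lower of all 9771 measured genes. The list shares 4 of its 18 genes with the smooth muscle markers, and 3 of these, Acta2, Tagln and Myh11 (0.93), are among the 4 smooth muscle markers called higher. Of the smooth muscle markers outside the SRF list, Pdgfrb was higher (1.05) and Abcc9 lower (-1.06), while Cspg4 (0.77) and Des (0.44) lay above 0 and Rgs5 (-0.34) and Kcnj8 (-0.26) below it without passing the threshold. The part of those cells, and of other cell types, in the SRF list was not tested. Of 16 measured MEF2 targets of muscle 1 was higher, Xirp2 (7888 and 27613 reads, 1.45), an actin-binding protein of intercalated discs, and 0 were lower, again beside 12% of all genes, with a median of -0.02. This list shares 3 of its 16 genes with the cardiomyocyte markers, Ckm, Nrap and Cox6a2, and 1, Des, with the smooth muscle and pericyte markers. Ckm (-0.82), the muscle creatine kinase, Slc2a4 (-0.68), the insulin-dependent glucose transporter, and Ppargc1a (-0.59), a coactivator of mitochondrial genes, stood below 0. With TMM factors 2 of the MEF2 targets were lower, Ckm (-1.11) and Slc2a4 (-0.95), 1 was higher, and the median was -0.29. These counts, too, stand beside 642 higher and 379 lower of all 9771 genes with TMM factors.

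**Figure D5:**
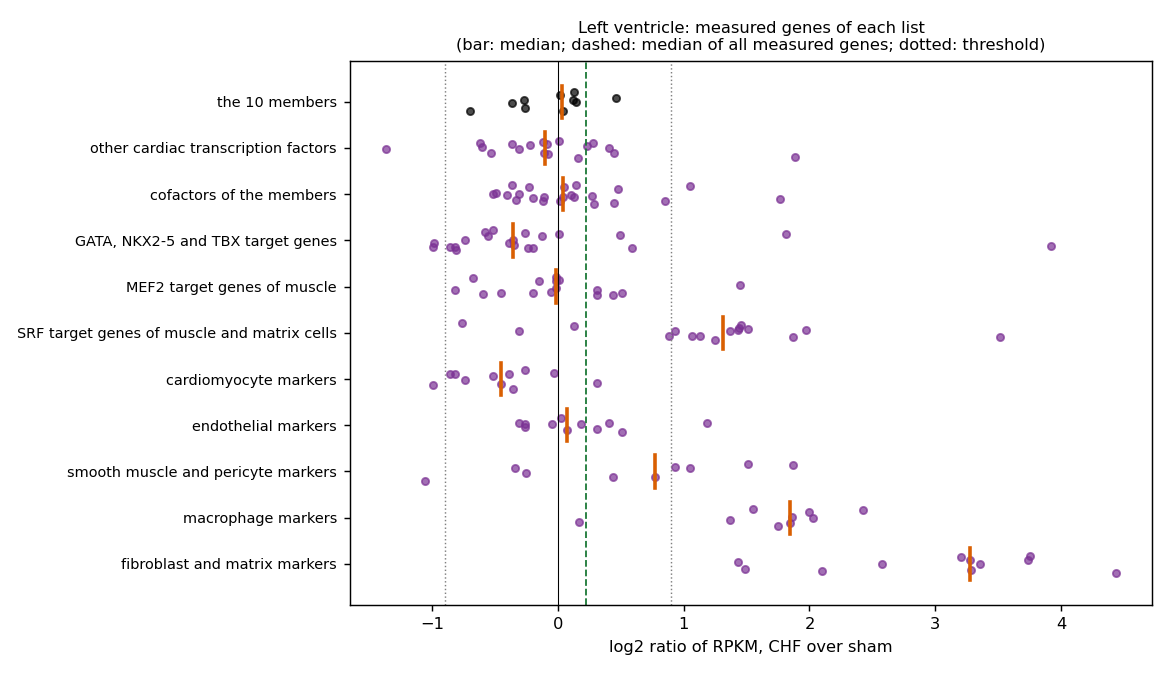
Log2 of the RPKM ratio (CHF over sham) in the ventricle of each measured gene (dot) of the members and of 10 lists, with orange bars for the medians, a dashed line for the median of all measured genes (0.22) and dotted lines for the threshold. Members, other cardiac factors, cofactors and MEF2 targets have medians between -0.10 and 0.04, SRF targets 1.31 and fibroblast markers 3.27; with TMM factors the medians of the members (-0.24), cofactors (-0.23) and endothelial markers (-0.20) lie below 0.

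In the brain, genes that SRF and MEF2 activate in neurons were compared beside Srf and the MEF2 genes. In prefrontal cortex 4 of 17 measured genes were lower and 0 higher, beside 0.0558% of all genes there, with a median of -0.23, in a list drawn up with earlier results of these data known. They were Npas4 (1076 reads in sham, 447 in CHF, log2 ratio -1.00), an activity-dependent helix-loop-helix factor, Arc (6161 and 2596, -0.97), a synaptic regulator, Junb (2080 and 902, -0.93) and the nuclear receptor gene Nr4a1 (5246 and 2289, -0.92). The study itself reported these 4 genes as lower in prefrontal cortex from the same libraries. Their number in this list was therefore known in advance and adds no support. Srf had -0.06 in prefrontal cortex and Mef2c 0.05. Egr1, the most abundant of the list by RPKM in sham, had -0.07. In hippocampus 0 of 16 passed the threshold in either direction, with a median of 0.04. The largest values there went both ways: Dusp1 had 0.33 (0.18 to 0.49) and Ier2 0.21 (-0.09 to 0.52). Pcdh17 had -0.24 (-0.37 to -0.08) and Arc -0.23 (-0.30 to -0.17). In ventricle 5 of 10 measured genes of this list were higher, beside 12% of all genes past the threshold in either direction, among them Nr4a1 (369 and 2501 reads, 2.40) and Fos (177 and 643, 1.50). None of the marker lists for neurons, microglia or meningeal and vascular cells had a gene past the threshold in either brain region, although the meningeal and vascular median was 0.31 in hippocampus and 0.13 in prefrontal cortex.

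For each member the gene with the most similar profile over the 6 libraries was sought, by the root mean square difference of centered log2 CPM after adding 0.5 reads. For members with 0 reads in the brain, likeness rests on 0 reads there and a similar count in the ventricle. Nkx2-5 was nearest to Myot (0.09 log2 units), a Z-disc protein, which gave 1137 reads in sham and 1200 in CHF ventricle and 0 in brain, and Hand2 to the ventricular factor Irx4 (0.10), with 922 and 780 reads. Tbx20 was nearest to Ebf3 (0.19), a helix-loop-helix factor, and Mef2c to Arhgap25 (0.17), which also peaked in prefrontal cortex with 398 and 376 reads. Tbx5 had the least similar neighbor, Sgca (0.56), a sarcoglycan of muscle, and Gata4 and Gata6 were at 0.26 from Fabp4 and 0.32 from 2310014F07Rik. By contrast 1149 genes lay within 0.25 of Mef2d, 1430 of Srf and 238 of Mef2a, nearest to 2410004B18Rik (0.03), Ubtd1 (0.04) and Kif1c (0.08), so a close neighbor was common for these broadly expressed members. Points in such a profile share library and depth, and likeness over 6 libraries describes levels only.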

How the data were processed

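RNA from 3 tissues was sequenced by the authors as single reads from stranded libraries depleted of ribosomal RNA, and mapped with CLC Genomics Workbench (version not given in the sources used here) to GRCm38.p1. For 35485 features, the authors deposited counts of unique and of total gene reads, as whole numbers. Their deposited RPKM values scale the exon reads by the listed length and by the library's total gene reads. Recomputing them gave the deposited value to within 1e-06 for the 21888 features with a listed length, and the other 13597 carry an RPKM of 0. Of these lengths, 21829 are the genomic span. The authors' comparison tables, which hold their ratios, were not used.

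Members were taken by feature name. The 100 read minimum and the log2 threshold of 0.9 follow the study's methods, and the minimum was required in both libraries. With 1 library per group, no test was run. For each gene's ratio between pools, a 95% Clopper-Pearson interval was computed for the CHF library's portion of the reads and converted to the log2 scale using library totals. Folds between tissues used the portion of the first-named tissue in the same way. Changes in the read ratio of a gene pair have conditional odds ratio intervals. Differences of log2 ratios between tissues have a normal approximation on log reads. A fold against 0 reads uses 3 reads per library as the floor. The 95% intervals of shares are Clopper-Pearson as well. PCR reads without molecular identifiers are not independent molecules.

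Members and 14 gene lists were chosen with earlier results of these data known. Named genes are all members, and of each list up to 4 measured genes with the largest absolute log2 ratio and the one with the highest RPKM in sham; not all of these are printed. Myh11, Smtn, Rgs5, Kcnj8 and Cspg4 were named outside this rule, after their values were seen. The listed symbol Map2 is not in the tables used, and Adgre1 appears there under its older symbol Emr1, which was listed as well and counted as 1 gene. Alternatives were TMM factors (edgeR 4.0.16), DESeq2 1.42.0 size factors, CPM of unique or of total gene reads, totals without the 10 largest features, read minimums of 1, 50 and 200, 100 reads in either library, 0.01 added to RPKM, and thresholds of 0.8 and 1.0. A lowess trend (fraction 0.3) on transcript GC content, matched for 92.2 to 92.5% of measured genes, and the level per kb of GENCODE vM21 exons were added after seeing the data. Interval and call scripts were tested on simulated data. Software was R 4.3.3 and Python 3.11.15 with matplotlib 3.10.9, scipy 1.17.1, pandas 2.3.3, statsmodels 0.14.6 and numpy 2.4.6.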

Additional observations from a re-analysis of the deposited data

Results flagged for a closer look

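The log2 ratio of Mef2c, CHF over sham, was 0.12 in the left ventricle and -0.30 in the hippocampus. It is listed because the pools of these tissues moved in opposite directions, each with a counting interval that excluded 0. The difference was not tested, since each tissue has 1 library per condition. The ventricular value turned negative with TMM factors, DESeq2 size factors and totals without the 10 largest features. Relative to the median of all genes in each tissue, Mef2c was below it in both, by -0.10 in ventricle and -0.33 in hippocampus, and the difference between tissues was 0.23 instead of 0.42. The Mef2c to Mef2d read ratio differed between pools by 0.49 on the log2 scale in ventricle, where Mef2d itself had -0.37, and by -0.32 in hippocampus, where Mef2d had 0.02.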

How the results depend on the processing

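With 1 library per group no replicate could be left out, and the spread between mice is not measured. In the ventricle, 1 member (Tbx5) instead of 0 passed the threshold with TMM factors and with DESeq2 size factors, and the members' median log2 ratio was -0.24 with TMM, -0.26 with DESeq2 and -0.13 with totals without the 10 largest features, against 0.03 with RPKM. A read minimum of 1 put 1 member, Gata6, past the threshold in hippocampus (3 reads in CHF, 5 in sham) and in prefrontal cortex (3 and 8). CPM of total gene reads gave the RPKM ratio of each member again. Of 60 member values under the other 6 alternatives in the ventricle, 31 lay within the counting interval and 29 did not. In hippocampus 30 of 30 and in prefrontal cortex 29 of 30 lay within it, the exception being Srf at 0.03 in prefrontal cortex with the GC trend removed. Tbx20 stayed positive and Tbx5, Hand2, Mef2a and Mef2d negative under all alternatives in the ventricle. Depth limits Gata4, Gata6, Nkx2-5, Tbx5 and Hand2 in brain, where a change between pools was not detectable.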
